A study of Arabidopsis thaliana with 14 samples.

Results

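Leaf transcript levels after drought were compared with those of watered plants over both plant lines of the series that had a watered group. The comparison took 6 drought arrays against 6 water arrays, 12 of the 14 arrays in all, with the line as a covariate. Each condition held 3 arrays of Col-0, the wild type, and 3 arrays of camta5, given in the labels as the camta5-a mutant in the Col-0 background. Both drought arrays of the CAMTA5 overexpression line were not used here. The plants were 1 month old, the drought lasted 14 days, and the tissue was leaf. CAMTA5 is a calmodulin-binding transcription activator, and the study, by its title, concerned drought tolerance under its overexpression. The genotype entry of camta5 water replicate 1 reads wild type while its title names the mutant, and it was grouped by title. The replicates are called biological, but separate plants are not stated, so the p-values speak only to the spread among these arrays, which may be technical.

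A leaf that dries out makes abscisic acid, the hormone that closes stomata and switches on protective genes. Among those genes are the late embryogenesis abundant (LEA) proteins and dehydrins, hydrophilic proteins that shield membranes and enzymes as water is lost. Growth slows at the same time, through proteins that loosen the cell wall, and prolonged drought brings on leaf senescence, in which chloroplasts are taken apart and their nutrients are sent elsewhere.

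Each array measured 22810 probe sets, and the deposited values were linear signal intensities, here called signal. After control probe sets and dim probe sets were left out, 14603 were tested, and 7842 genes were represented by 1 probe set each. All differences below are drought minus water on the log2(signal + 16) scale, which understates the change of dim genes, and ± is the standard error. A probe set was called at an adjusted p under 0.05 in limma. Rank correlations between arrays were 0.945 to 0.973 within a line and condition, and 0.835 to 0.932 between the conditions of a line. The targeted gene CAMTA5 (AT4G16150) had signals of 115, 179 and 152 in Col-0 with water and 191, 172 and 154 in camta5 with water. After drought they were 232, 146 and 217 in Col-0 and 265, 284 and 306 in camta5. The arrays labelled camta5 were therefore not low in this transcript. The position of the lesion against the probe set is not stated, and the level is no test of the label.

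The tissue label was set against cell type markers. Of 18 listed leaf mesophyll genes 3 were tested, and all had high signals. That of RCA, the activase of the carbon-fixing enzyme Rubisco, was 28324 to 41941 with water and 29871 to 35950 after drought, and it was not called. The other 2, PSAN of photosystem I (-0.81 ± 0.13) and the antenna gene LHCB4.1 (-0.39 ± 0.10), fell without overlap. The summed signal of these 3 genes was 64267 to 83081 with water and 52572 to 65397 after drought. Of 9 listed root genes only PYK10 (AT3G09260), a beta-glucosidase of root endoplasmic reticulum bodies, was tested. Its signal was 2.80, 9.14 and 35.7 (lowest, median, highest) with water and 61.1, 85.1 and 115 after drought, a rise of 1.79 ± 0.32 (adjusted p = 0.000671) that was 2.98 with an offset of 1 and 0.91 with an offset of 64. PYK10 thus moved with drought at a low signal in every drought array, and its part in the results below was not tested. The guard cell gene FMA had 147 to 376 with water and 213 to 310 after drought and was not called, and none of 10 listed flower and pollen genes was tested. In whole leaves, fewer cells of a type and less RNA per cell cannot be told apart.

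The drought arrays differed in how far they had moved from the water arrays. Each array was placed by its median log2 difference from the water arrays of its own line, over the probe sets called in the other line, so that the array took no part in choosing them. Over the 1288 probe sets higher in camta5, the Col-0 drought arrays lay 0.77, 1.1 and 0.94 above Col-0 with water (replicates 1, 2 and 3). Over the 1229 lower ones they lay at -0.77, -1.36 and -0.94. Replicate 2 was thus the strongest and replicate 1 the weakest responder of the Col-0 arrays in both directions. Over the 2295 probe sets higher in Col-0, the camta5 drought arrays lay 0.50, 0.77 and 0.59 above camta5 with water. Over the 1716 lower ones they lay at -0.55, -0.93 and -0.85. Replicate 1 was again the weakest and replicate 2 the strongest responder, here of the camta5 arrays, in both directions. The water arrays, set against the remaining water arrays of their line, lay between -0.11 and 0.10. The probe sets differed between the lines, so these values rank arrays within a line only.

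**Figure D1:**
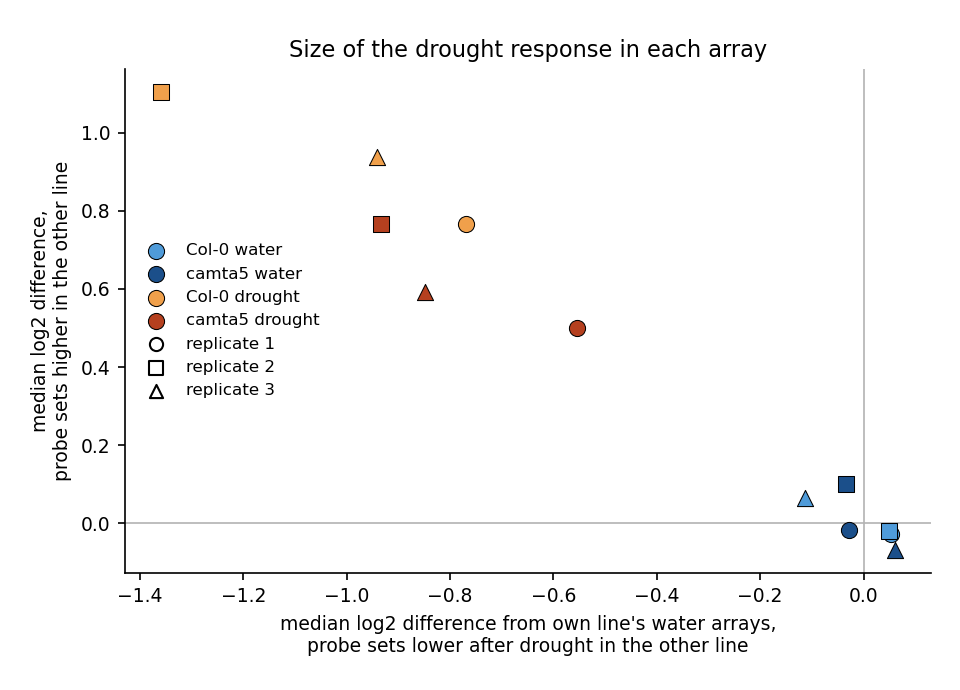
Each point is 1 array, placed by its median log2 difference from the water arrays of its own line over probe sets lower (x axis) or higher (y axis) after drought in the other line; colours give line and condition and shapes the replicate. All 6 drought arrays sit away from the water arrays. Within Col-0 replicate 2 is the farthest (1.1 and -1.36), and within camta5 replicate 1 is the nearest (0.50 and -0.55).

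With 6 arrays a side, 6489 probe sets were called, 44.4% of those tested, with 3685 higher (25.2%) and 2804 lower (19.2%) after drought. After quantile normalization 3183 were higher and 2960 lower, and with arrays centred on the median 3294 and 3059. Most of the changes were small. The median rise was 0.64 and the median fall was -0.76, and the smallest difference called was 0.21. Falls outnumbered rises among the large changes, with 705 probe sets higher (4.83%) and 896 lower (6.14%) by at least 2-fold, and 96 higher and 187 lower by at least 4-fold. In 1555 probe sets all 6 drought arrays lay above all 6 water arrays, 10.6% of those tested, and in 1207 they lay below, 8.27%, together 18.9%. Calls were rarer among dim probe sets, at 34.9% of the dimmest of 3 equal groups by mean level, against 47.8% of the middle and 50.6% of the brightest group. Rises made up 66.3% of the calls in the middle group and 49.8% in the brightest. At the gene level 2005 genes rose (25.6%) and 1408 fell (18.0%), and the median over all genes was 0.08. By at least 2-fold 4.76% of genes were higher and 5.67% lower, and without overlap 10.6% were higher and 7.54% lower. These shares are the background for the counts of gene groups that follow. Apart from the plastid list, members were drawn mostly by symbol. Of the 1111 tested genes with a symbol 284 rose and 271 fell. Falls thus had a larger share there than over all genes, and 18.0% is a low background for falls in the lists.

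Over all genes the differences ran from -5.20 (AT3G05730) to 6.37 (AT3G17520), both without a symbol in the annotation and picked after their values were seen. The rankings of rises and falls below cover only genes with a symbol that were called and whose conditions did not overlap. Among these, dehydration proteins and SAG29, a gene of senescing leaves, led the rises. DI21 (AT4G15910), a drought-induced gene, had signals of 61.3, 99.7 and 194 (lowest, median, highest) with water and 1591, 2534 and 18443 after drought. The groups did not overlap, and the highest value was that of Col-0 drought replicate 2. DI21 rose by 4.81 ± 0.47, or 28-fold (adjusted p = 1.3e-05). SAG29 (AT5G13170), also called SWEET15, is a sugar transporter of senescing leaves. Its signals were 124, 147 and 309 with water and 2600, 4174 and 10007 after drought, a rise of 4.62 ± 0.23 (24.6-fold, adjusted p = 7.53e-08). LEA4-5 (AT5G06760), a LEA protein, had 81.9, 132 and 210 with water and 777, 4279 and 8558 after drought. It rose by 4.30 ± 0.50 (adjusted p = 3.26e-05), and its 2 lowest drought values, 777 and 1112, were those of replicate 1 of each line.

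The dehydrin gene LTI30 (AT3G50970) rose by 3.35 ± 0.58 (adjusted p = 0.000527), from 40.3, 211 and 333 to 449, 1607 and 9475. Without Col-0 drought replicate 2, its highest array, the rise was 2.76. HIS1-3 (AT2G18050), a linker histone made under water deficit, rose by 3.33 ± 0.19 (adjusted p = 2.07e-07), from 428, 544 and 665 to 3338, 6342 and 7459. MGL (AT1G64660), the methionine gamma-lyase that breaks methionine down, rose by 3.12 ± 0.24 (adjusted p = 2.84e-06), from 289, 377 and 614 to 1826, 3888 and 4997. In both genes even the lowest drought array stood far above the highest water array. The lowest drought values of MGL, 1826 and 2698, were those of replicate 1 of camta5 and of Col-0. The other members of the 10 largest rises among such genes were the sugar transporter gene SWEET4 (AT3G28007, 2.42 ± 0.24), SHN3 (AT5G25390, 2.34 ± 0.25), a regulator of wax and cutin, BETA-VPE (AT1G62710, 2.28 ± 0.26), a vacuolar processing protease, and the lectin gene EULS3 (AT2G39050, 2.09 ± 0.19). SHN3 was dim, with 4.81 to 47.5 with water and 82.1 to 277 after drought, and its rise was 3.28 with an offset of 1 and 1.38 with an offset of 64.

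Among genes with a symbol and no overlap, the 10 largest falls included defence peptides, wall-loosening proteins and a chloroplast gene. THI2.2 (AT5G36910), a thionin, which is a small antimicrobial peptide, had signals of 679, 1056 and 1295 with water and 11.8, 47.4 and 130 after drought. It fell by 4.05 ± 0.24 on the log2 scale, 16.6-fold (adjusted p = 2.86e-07). XTH19 (AT4G30290), a xyloglucan endotransglucosylase that cuts and rejoins wall polymers, had 285, 638 and 952 with water and 14.2, 45.5 and 53.7 after drought. Its log2 difference was -3.47 ± 0.28 (adjusted p = 3.42e-06). SP1L4 (AT5G15600), a SPIRAL1-like gene of the family that acts on cortical microtubules, had 371, 696 and 834 with water and 5.82, 76.9 and 139 after drought (-3.21 ± 0.36, adjusted p = 2.34e-05). In these 3 genes no drought array reached the lowest water array, as the selection required.

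EXPA8 (AT2G40610), an expansin, had 687, 1042 and 1259 with water and 9.44, 133 and 448 after drought (-3.06 ± 0.46, adjusted p = 0.000204). MSRB6 (AT4G04840), a methionine sulfoxide reductase that repairs oxidised methionine, had 1036, 1430 and 1684 with water and 65.9, 126 and 418 after drought (-2.95 ± 0.27, adjusted p = 7.4e-06). The remaining members of these 10 falls were the expansin gene EXPA16 (AT3G55500, -2.87 ± 0.37), TBL45 (AT2G30010, -2.72 ± 0.37), of the TRICHOME BIREFRINGENCE-LIKE family of wall acetylation, the sugar transporter gene SWEET2 (AT3G14770, -2.61 ± 0.22), the plastid gene petN (-2.60 ± 0.25) and the defensin gene PDF1.2 (AT5G44420, -2.60 ± 0.46). The fall of EXPA16 was -3.80 with an offset of 1 and -1.89 with an offset of 64, since its drought signals reached down to 4.69. THI2.2, XTH19, SP1L4, TBL45 and PDF1.2 had smaller falls with an offset of 64, at -3.22, -2.67, -2.49, -2.05 and -1.97.

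**Figure D2:**
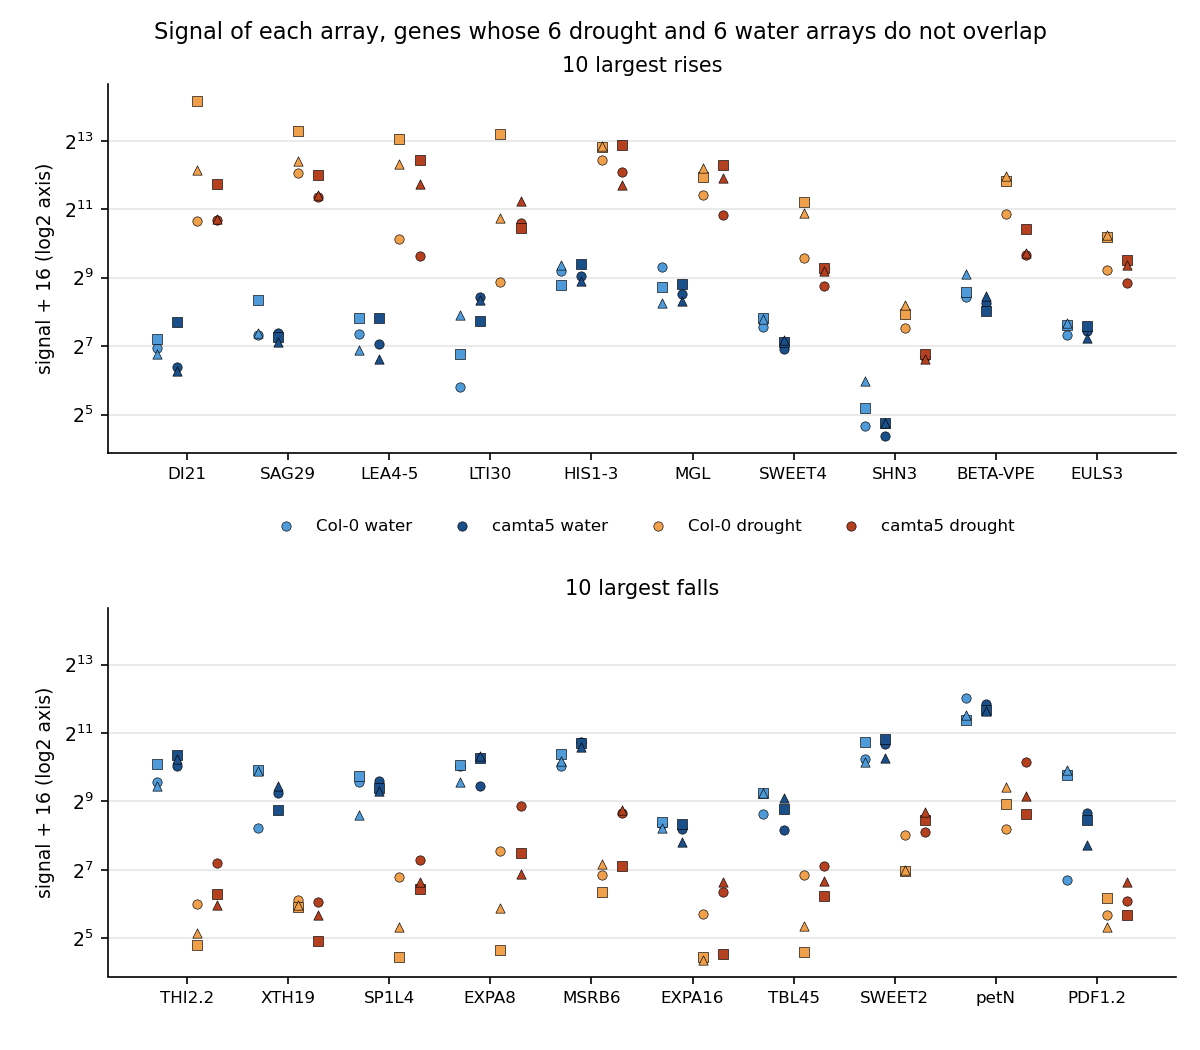
Signal plus 16 of each of the 12 arrays (log2 axis) for the 10 largest rises (top) and the 10 largest falls (bottom) among genes with a symbol that were called and whose conditions did not overlap; colours give line and condition, shapes the replicate (circle 1, square 2, triangle 3). DI21 runs from at most 194 with water to at least 1591 after drought, and THI2.2 from at least 679 to at most 130.

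Some genes changed less but with a small spread. ZW9 (AT1G58270) rose by 1.85 ± 0.15 (adjusted p = 3.73e-06), EPC1 (AT3G55830), a glycosyltransferase needed for cell adhesion, by 1.23 ± 0.12 (adjusted p = 1.21e-05), and U2AF35B (AT5G42820), a splicing factor subunit, by 1.01 ± 0.11 (adjusted p = 2.24e-05). U2AF35B had 463, 537 and 575 with water and 907, 1107 and 1267 after drought, so its conditions stood well apart at a change of 2.01-fold. Among the falls of smallest p were the pectin methylesterase gene ATPMEPCRB (AT4G02330, -2.52 ± 0.27), DRT100 (AT3G12610, -2.46 ± 0.25), GPDHp (AT5G40610, -1.42 ± 0.15), a glycerol-3-phosphate dehydrogenase, and TBL28 (AT2G40150, -1.27 ± 0.14). COR15B (AT2G42530), a cold-regulated protein that protects chloroplast membranes, fell by 1.88 ± 0.18 (adjusted p = 1.22e-05). Its signals were 671, 786 and 1301 with water and 172, 228 and 308 after drought.

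Most of the cell wall loosening genes tested were lower. Of 14 tested expansins and xyloglucan endotransglucosylases 9 fell, where 18.0% of all genes did, 2 rose and 3 were not called. All 9 falls were at least 2-fold. The list median was -1.41, against 0.08 over all genes, and it was -1.41 in the Col-0 arrays and -1.41 in the camta5 arrays fitted alone. Besides XTH19, EXPA8 and EXPA16, the falls were those of EXPA4 (-1.87 ± 0.30), EXPB1 (-1.84 ± 0.38), XTH18 (-1.69 ± 0.36), EXPB3 (-1.43 ± 0.24), XTH16 (-1.40 ± 0.34) and XTH32 (-1.13 ± 0.28). EXPB1 and XTH18 were dim, and their falls ran from -3.37 to -0.91 and from -2.38 to -0.99 between offsets of 1 and 64. The rises were those of the expansin-like gene EXLB1 (1.74 ± 0.44) and of EXPA9 (0.55 ± 0.14). With only probe sets above the 60th percentile tested, 5 members were lower. That filter leaves out dimmer probe sets, and the number of members it still tested is not given here.

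Of 25 other wall genes tested, 5 rose and 6 fell, with a median of -0.04. These counts were near the shares of all genes, 25.6% higher and 18.0% lower. Besides TBL45, ATPMEPCRB and TBL28, TBL26 fell by 2.14 ± 0.46. CSLA01, a glucomannan synthase gene, rose by 1.61 ± 0.38 and CSLD2, a cellulose synthase-like gene, by 1.13 ± 0.22. The histone list joined a rise of HIS1-3 with falls of the H2B genes HTB2 (AT5G22880, -1.25 ± 0.22) and HTB1 (AT1G07790, -0.50 ± 0.11), while the H2B gene HTB4 had a difference of -0.02 ± 0.10.

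Nuclear genes of photosynthesis mostly fell, by modest amounts. Of 16 tested, 11 fell, where 18.0% of all genes did, 1 rose and 4 were not called, and the list median was -0.41. PSBY (AT1G67740), a photosystem II subunit, had signals of 19184, 21256 and 24511 with water and 5597, 9580 and 14834 after drought (-1.17 ± 0.17, adjusted p = 0.000175). It was the only member to fall by at least 2-fold. PSAN (AT5G64040) of photosystem I fell by 0.81 ± 0.13 (adjusted p = 0.000279), from 17179, 19709 and 21707 to 7619, 11533 and 13737. In both genes all drought arrays lay below all water arrays. NdhN (-0.82 ± 0.19) of the chloroplast NAD(P)H dehydrogenase and the Calvin cycle genes SBPASE (-0.58 ± 0.10) and PRK (-0.53 ± 0.11) fell as well. PGRL1B (AT4G11960), a protein of cyclic electron flow around photosystem I, was the member that rose, by 0.76 ± 0.11 (adjusted p = 0.000117), from 797, 928 and 1032 to 1355, 1581 and 1776. LHCB4.3 (AT2G40100), an antenna protein, had -0.94 ± 0.31 (adjusted p = 0.0246), and its adjusted p was 0.0515 to 0.0616 without Col-0 water replicate 3, Col-0 drought replicate 2, camta5 water replicate 1 or camta5 drought replicate 2.

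The list depended on how the arrays were scaled. After quantile normalization 5 of its members were lower in place of 11, and PRK was at -0.21 (adjusted p = 0.137) and LHCB4.1 at -0.10 (adjusted p = 0.387). Chlorophyll synthesis showed a similar split, with 4 of 10 genes lower and 1 higher, where 18.0% and 25.6% of all genes were. CHLM (AT4G25080), which methylates magnesium protoporphyrin, fell by 1.04 ± 0.15 (adjusted p = 0.000172), CHLI2, a subunit of magnesium chelatase, by 0.92 ± 0.15, PORB, a protochlorophyllide reductase, by 0.85 ± 0.25, and HEME2 by 0.61 ± 0.12. The rise was that of hemf2 (AT4G03205), a coproporphyrinogen oxidase gene, from 2.02, 9.18 and 15.7 to 40.7, 65.0 and 82.8 (1.69 ± 0.27, adjusted p = 0.000322). That rise was 2.92 with an offset of 1 and 0.80 with an offset of 64.

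Genes encoded in the plastid genome fell widely. Of 69 tested, 47 fell, where 18.0% of all genes did, 1 rose and 21 were not called. Of the falls 24 were at least 2-fold, where 5.67% of all genes fell so far. The list median was -0.73. In every one of the 12 leave-one-out fits 40 of the 47 stayed called, and the calls of atpA, ndhJ, psaB, psbI, psbL, psbN and rps2 ended without at least 1 array. The falls reached across the photosynthetic complexes, with 13 of 15 photosystem II genes, 5 of 5 photosystem I genes, 5 of 6 cytochrome b6f genes and 4 of 6 ATP synthase genes lower. Their sizes differed widely within a complex, from -2.91 to -0.06 in photosystem II and from -3.07 to -0.20 in cytochrome b6f. The part of RNA labelling in these plastid signals was not tested. Of the NAD(P)H dehydrogenase genes 5 of 10 were lower, and of the ribosomal protein genes 6 of 15, with rps14 higher (0.65 ± 0.17, adjusted p = 0.00726). The gene petN, a small subunit of the cytochrome b6f complex, had signals of 2627, 3201 and 4125 with water and 275, 515 and 1122 after drought (adjusted p = 1.11e-05). It was 1 of 4 plastid genes, of 69 tested, whose drought arrays all lay below the water arrays. Over all genes 7.54% did so, so the plastid genes did not exceed the background in this count. The large subunit of Rubisco, rbcL, was another, with 14771, 19012 and 20438 against 5397, 9233 and 14716 (-1.0 ± 0.15, adjusted p = 0.000211).

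The plastid genes did not move together in every drought array. Over all 69 plastid genes, 47, 52 and 55 lay below all 6 water arrays in Col-0 drought replicates 1 to 3. In camta5 drought replicates 2 and 3 the counts were 56 and 53, but in camta5 drought replicate 1 it was 4. The 47 called lower were picked with these same arrays, which favours low drought values, and 43.5% of all genes were called in either direction. Of these 47, 44, 46 and 47 lay below in the Col-0 drought arrays, and 4, 44 and 45 in camta5 drought replicates 1 to 3. Against the mean of the water arrays, the median of the 69 genes was -0.71, -1.21 and -0.98 in Col-0, 0.15 in camta5 replicate 1, and -0.89 and -0.92 in camta5 replicates 2 and 3. Over all 7842 genes, 1566 lay below the 6 water arrays in camta5 drought replicate 1, against 1561 to 2224 in the other 5. Over the probe sets called in Col-0 it had shifts of 0.50 and -0.55, the smallest of the camta5 drought arrays. The petG gene, another cytochrome b6f subunit, shows the pattern. Its signal was 3914 to 6364 with water and 663, 314, 442, 5863, 383 and 228 after drought (Col-0 replicates 1 to 3, then camta5 replicates 1 to 3). Its difference was -3.07 ± 0.57 (adjusted p = 0.000844), and -3.75 (adjusted p = 1.02e-07) without camta5 drought replicate 1. Without that array 53 plastid genes were lower in place of 47. The core antenna gene psbB of photosystem II (-2.91 ± 0.41) likewise had a drought range of 960 to 14193, overlapping the water range of 13318 to 32982. Fitted alone, the Col-0 arrays had 42 of the 69 plastid genes lower, against 10.9% of all genes, and the camta5 arrays, which hold the differing replicate, had 8, against 7.32% of all genes.

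**Figure D3:**
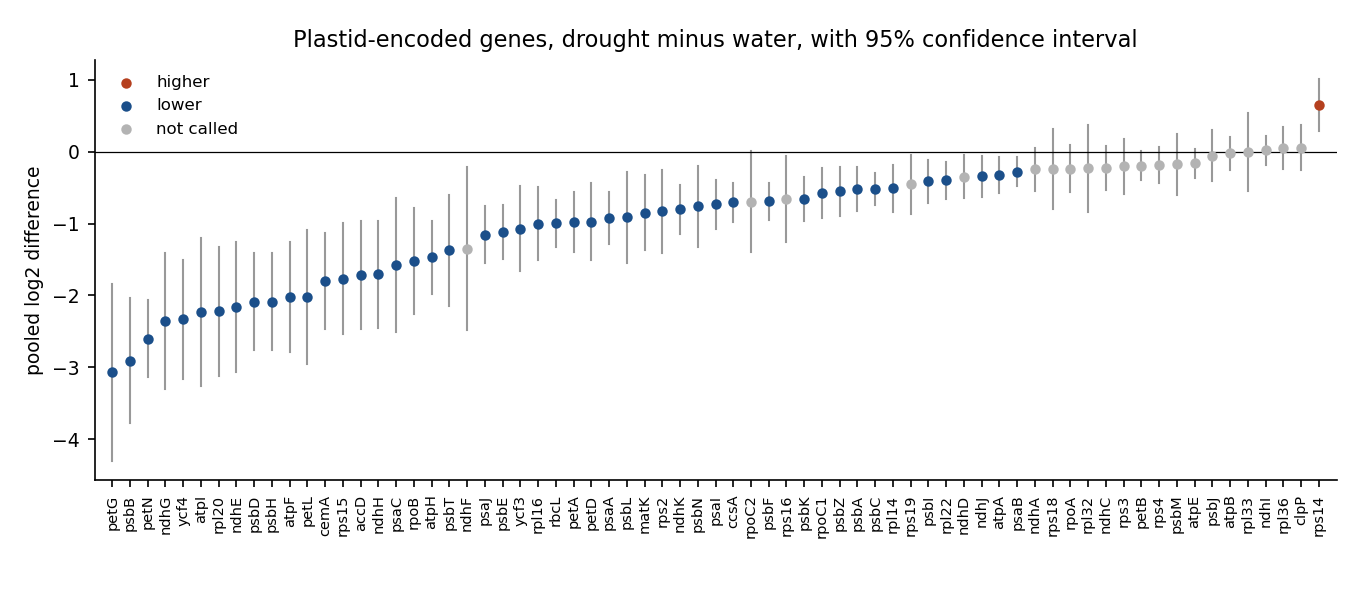
Pooled log2 difference, drought minus water, of the 69 plastid-encoded genes (y axis), ordered by size along the x axis, with the 95% confidence interval of each gene on its own as a line; colours show the call after adjustment. The genes run from petG at -3.07 to rps14 at 0.65, the only one called higher.

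Of 10 LEA, dehydrin and cold-regulated genes tested, 4 rose and 2 fell, where 25.6% and 18.0% of all genes did. Their median was 0.22. LEA4-5, LTI30 and DI21 rose strongly, and COR15B fell. COR47 (0.28 ± 0.23, adjusted p = 0.341) and COR15A (-0.34 ± 0.33, adjusted p = 0.426), both cold-regulated, were not called. The other 2 calls were near the threshold. COR27 had 0.74 ± 0.28 (adjusted p = 0.0481), and the dehydrin family gene AT1G54410 had -0.26 (adjusted p = 0.023) and 0.02 after quantile normalization. The call of COR27 ended without any 1 of 11 arrays (adjusted p = 0.0512 to 0.113), and it held without camta5 water replicate 2. That of AT1G54410 ended without Col-0 water replicate 2, camta5 water replicate 3 or camta5 drought replicate 2 (adjusted p = 0.0529 to 0.0587).

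Genes of senescence and nutrient recycling included many rises. Of 15 tested, 8 rose, where 25.6% of all genes did, 1 fell and 6 were not called, and the median was 0.38. The vacuolar proteases BETA-VPE and GAMMA-VPE (AT4G32940, 1.13 ± 0.25, adjusted p = 0.00276) rose. BETA-VPE had signals of 244, 331 and 533 with water and 791, 1609 and 4040 after drought. Autophagy delivers cell contents to the vacuole, and its membrane tag ATG8 has several gene copies. ATG8G (0.83 ± 0.15), ATG8F (0.79 ± 0.15), ATG8D (0.65 ± 0.14) and ATG8C (0.38 ± 0.10) rose, as did the ATG8-conjugating enzyme gene ATG3 (0.43 ± 0.11). ATG8B (0.36 ± 0.16, adjusted p = 0.0789), ATG8E (0.07) and ATG8H (0.02) were not called. Of the senescence-linked transcription factor genes, WRKY22 (AT4G01250) fell by 0.91 ± 0.24 (adjusted p = 0.00866), and WRKY53 had -0.40 ± 0.24 (adjusted p = 0.186). WRKY6 had -0.62 (adjusted p = 0.093) and the senescence-associated gene SAG101 had 0.18 (adjusted p = 0.456), and neither was called. Without Col-0 drought replicate 1 WRKY53 was called (-0.56, adjusted p = 0.0482), and without Col-0 water replicate 2 so was ATG8B (0.44, adjusted p = 0.0394). SAG29 stood far above the other members.

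Few hormone-linked genes could be tested, and over all genes 25.6% rose and 18.0% fell. Of 4 auxin genes 3 were lower and 1 higher. The call of YUC2, an auxin synthesis gene, ended in 10 of the 12 fits that leave out 1 array (adjusted p = 0.0536 to 0.0868), so 2 of the lower calls held in all. IAA29 (AT4G32280), an auxin-induced repressor of auxin response, fell by 2.26 ± 0.30 (adjusted p = 8.07e-05), from 78.4, 178 and 244 to 2.67, 30.5 and 49.6, and the fall was -3.10 and -1.41 with offsets of 1 and 64. WES1 (AT4G27260), which joins auxin to amino acids, fell by 0.82 ± 0.20. In the lines fitted alone it had -1.28 in Col-0 (adjusted p = 0.00735) and -0.36 in camta5 (adjusted p = 0.265). Of 4 cytokinin genes 3 were lower, and 2 in every leave-one-out fit, since the call of RR16 ended in 9 of them (adjusted p = 0.0624 to 0.103). ARR15 (AT1G74890), a cytokinin-induced response regulator, had 87.9, 276 and 378 in Col-0 with water and 1093, 891 and 610 in camta5 with water. After drought it had 106.3, 42.2 and 58.8 in Col-0 and 78.7, 54.8 and 34.7 in camta5. It fell by 2.56 ± 0.41 (adjusted p = 0.000315), from levels that differed between the lines to levels that overlapped. UGT76C2 (AT5G05860), a cytokinin glucosyltransferase, fell by 0.98 ± 0.25. In the lines fitted alone UGT76C2 had -0.52 in Col-0 (adjusted p = 0.193) and -1.44 in camta5 (adjusted p = 0.016).

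Jasmonate and defence marker genes split, with 3 of 9 higher and 4 lower, where 25.6% and 18.0% of all genes were. The calls of JRG21, higher, and JMT, lower, ended in 8 and 9 of the 12 leave-one-out fits. Beside THI2.2 and PDF1.2, the second defensin gene PDF1.2b (AT2G26020) fell by 2.74 ± 0.62 (adjusted p = 0.00303). The fall of PDF1.2b was -3.34 and -1.97 with offsets of 1 and 64. Its probe set is of a type whose probes can match related transcripts, and its separation from PDF1.2 was not tested. The thionin gene THI2.1 (1.98 ± 0.56, adjusted p = 0.0108) and the transcription factor gene MYC3 (0.91 ± 0.14, adjusted p = 0.000195) rose. THI2.1 had 1605 in Col-0 drought replicate 3 and 55.8 to 169 in the other 5 drought arrays, and its rise was 2.6 and 1.33 with offsets of 1 and 64. Of the ethylene genes EIN3 (AT3G20770), the main transcription factor of the response, rose (0.56 ± 0.09, adjusted p = 0.000283). RTE1 had 0.40 ± 0.14 (adjusted p = 0.0358), and its call ended after quantile normalization (adjusted p = 0.0896) and in 7 of the 12 leave-one-out fits (adjusted p = 0.0548 to 0.0882).

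Of 7 tested SWEET sugar transporter genes besides SAG29, 2 rose and 2 fell, where 25.6% and 18.0% of all genes did. SWEET4 and SWEET17 (0.71 ± 0.19, adjusted p = 0.00834) rose, and SWEET2 and SWEET11 (-0.56 ± 0.13, adjusted p = 0.00399) fell. SWEET2, which moves sugar into the vacuole, had 1127, 1421 and 1792 with water and 109, 251 and 398 after drought. SWEET4 had 105, 151 and 212 with water and 419, 679 and 2343 after drought. SWEET11, which loads sucrose towards the phloem, was at -0.27 (adjusted p = 0.143) after quantile normalization. SWEET1 (AT1G21460), SWEET13 and SWEET16 were not called, though SWEET16 was called without camta5 water replicate 1 or camta5 drought replicate 1 (adjusted p = 0.0489 and 0.0392).

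Counts of redox and detoxification genes are set against all genes, of which 25.6% rose and 18.0% fell. Of 23 genes of reactive oxygen enzymes and redoxins 3 rose and 6 fell, and the calls of TY1 and GRXC2 ended without at least 1 array. The chloroplast ascorbate peroxidases SAPX (-0.96 ± 0.18) and TAPX (-0.75 ± 0.20) fell with MSRB6, while ATMDAR2 (AT5G03630), a monodehydroascorbate reductase, rose by 1.08 ± 0.18 (adjusted p = 0.000435). Of 9 glutathione transferases 5 fell, GSTL3 not in every leave-one-out fit, and 1 rose, with GSTU20 (AT1G78370) at -1.93 ± 0.25 and GSTF4 (AT1G02950) at -1.57 ± 0.31. BCAT4 (AT3G19710), the aminotransferase that starts methionine-derived glucosinolates, fell by 2.02 ± 0.26 (adjusted p = 6.46e-05), from 4427, 5761 and 7552 to 802, 1347 and 2906. Of 13 cytochrome P450 genes 7 rose and 3 fell, and 5 of the rises held in every leave-one-out fit (not those of CYP71B24 and CYP71B28). CYP71B26 (1.18 ± 0.24) and CYP78A9 (1.13 ± 0.16) were among the rises, and CYP71B22 (AT3G26200, -1.54 ± 0.28) and CYP71B36 (AT3G26320, -1.42 ± 0.32) among the falls. The fall of CYP71B36, a dim gene, was -2.39 and -0.71 with offsets of 1 and 64.

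Of 15 calmodulin-like and IQ-domain genes 7 fell, where 18.0% of all genes did, and 2 rose, where 25.6% did. The CAMTA genes rose a little. The call of IQD24, lower, ended in 7 of the 12 leave-one-out fits. The microtubule-linked gene iqd21 (AT3G49260) fell by 1.40 ± 0.17 (adjusted p = 5.04e-05) and IQD30 (AT1G18840) rose by 1.13 ± 0.23. In the lines fitted alone IQD30 had 1.62 in Col-0 (adjusted p = 0.00427) and 0.64 in camta5 (adjusted p = 0.146). The calmodulin-like genes CML23 (-1.02 ± 0.26), CML42 (-1.0 ± 0.16) and CML41 (-0.94 ± 0.24) fell. All 3 CAMTA genes tested were called. CAMTA5 rose by 0.53 ± 0.15 (adjusted p = 0.0106), CAMTA4 (AT1G67310) by 0.46 ± 0.13 (adjusted p = 0.0104) and CAMTA6 (AT3G16940) by 0.45 ± 0.14 (adjusted p = 0.0182). Their water and drought arrays overlapped, with 493.2 to 604 against 563 to 1047 for CAMTA4 and 820 to 1231 against 1093 to 1657 for CAMTA6. In the lines fitted alone, CAMTA5 was called in camta5 (adjusted p = 0.0315) and CAMTA4 in Col-0 (adjusted p = 0.0147), and CAMTA6 was called in neither. None of the 3 passed an adjusted p of 0.01 or changed by 2-fold.

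Further groups held strong changes of single genes. Of 24 ubiquitin and proteasome genes 8 rose and 3 fell, where 25.6% and 18.0% of all genes did. The call of ATL8, higher, ended in 10 of the 12 leave-one-out fits. The falls were those of the ubiquitin ligase genes PUB22 (AT3G52450, -2.05 ± 0.39), PUB26 (-1.24 ± 0.15) and PUB25 (-1.12 ± 0.22), while PUB19 (AT1G60190) rose by 1.31 ± 0.31 and UBC32, of protein quality control in the endoplasmic reticulum, by 0.93 ± 0.17. The fall of PUB22 was -1.38 with an offset of 64. GI (AT1G22770), a clock gene, fell by 0.96 ± 0.14 (adjusted p = 0.000153), and the clock-linked gene AFR (AT2G24540) rose by 1.05 ± 0.21. The hour of sampling is not given in the labels. The trichome regulators went opposite ways, with GIS at 0.99 ± 0.15 (adjusted p = 0.000173) and TRY at -1.01 ± 0.19 (adjusted p = 0.000808). The transporter genes AT1G33440 and AT1G59740, both of the NRT1/PTR family, fell by 1.17 ± 0.25 and 1.40 ± 0.22. UGT85A5 (AT1G22370), a glycosyltransferase gene, rose by 1.29 ± 0.32.

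**Figure D4:**
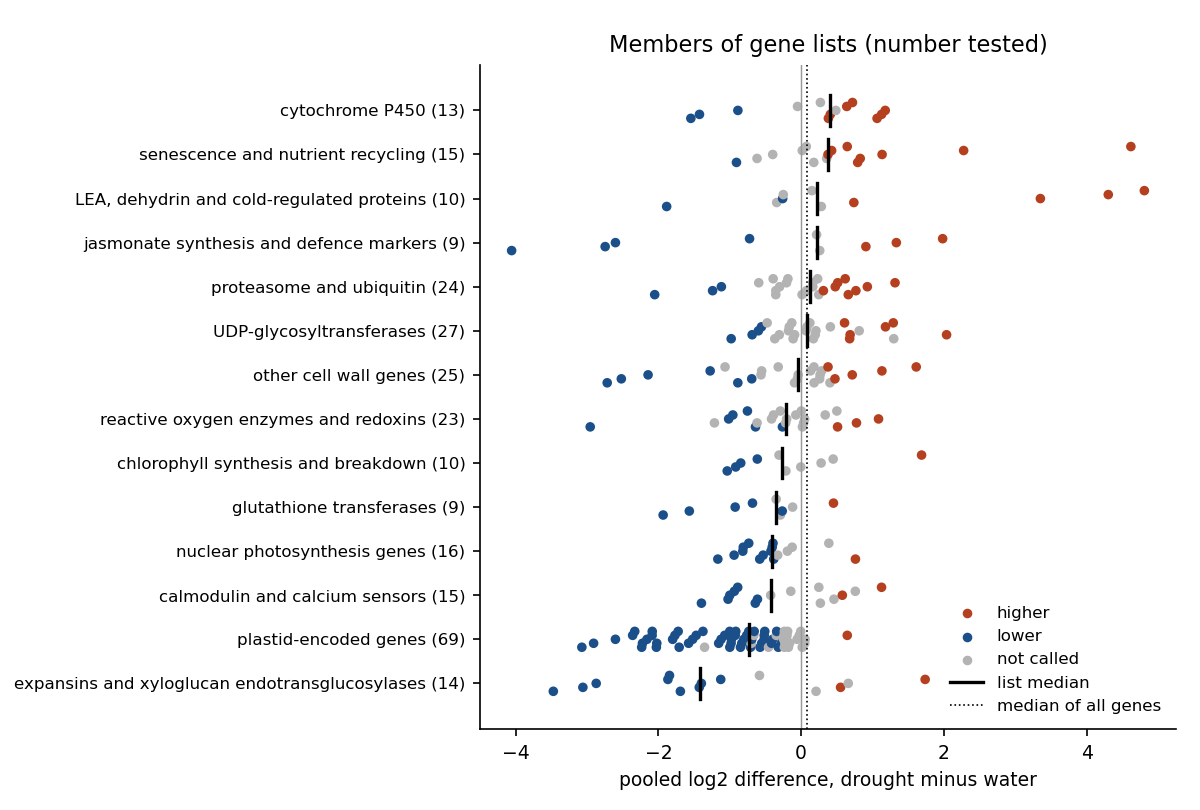
Pooled log2 difference, drought minus water (x axis), of every tested member of the gene lists with at least 9 tested members, ordered by list median (black bars); red is higher, blue lower and grey not called, and the dotted line is the median of all genes at 0.08. The expansin list has the lowest median, -1.41, and members on both sides of 0 occur in each list.

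The lines responded alike in direction. Of the 6489 probe sets called, 6487 had the same sign in the Col-0 arrays and the camta5 arrays fitted alone, a share of 99.97% that the pooling itself favours. The single-line fits share no array. Of the 4011 probe sets called in Col-0 alone (27.5% of those tested), 97% had the same sign in camta5, and of the 2517 called in camta5 alone (17.2%), 98.3% had the same sign in Col-0. Over all tested probe sets the share was 79.9%. The single-line counts rested on few arrays, and without 1 array they ran from 1897 (Col-0 water replicate 2 left out) to 4611 in Col-0 and from 764 (camta5 water replicate 1 left out) to 3427 in camta5. The calls common to both fits in the same direction numbered 1779, which was 44.4% of the Col-0 calls and 70.7% of the camta5 calls, and 1 probe set was called in opposite directions. The sizes were often larger in Col-0. Among the 10 largest rises and 10 largest falls named above, only MGL (3.09 in Col-0 and 3.14 in camta5) and XTH19 (-3.34 and -3.60) changed more in camta5. DI21 had 5.35 in Col-0 and 4.26 in camta5, and EXPA8 had -3.85 and -2.26.

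Pooling mainly added small changes. Of the 6489 calls, 2049 were made in neither line alone, 1200 higher and 849 lower, with a median size of 0.46, and 93 of them were at least 2-fold. The 1779 calls made in both lines as well had a median size of 1.1. The median standard error was 0.16 in the pooled fit, against 0.22 in the Col-0 and 0.21 in the camta5 fit. Among the genes of smallest p called only with 6 arrays a side were the ubiquitin-conjugating enzyme gene UBC18 (AT5G42990, 0.62 ± 0.15), DER2.2 (AT4G04860, 0.56 ± 0.13), a Derlin of the endoplasmic reticulum, PHOS34 (AT4G27320, 0.55 ± 0.13), the ubiquitin protease gene UBP25 (AT3G14400, 0.52 ± 0.11) and OTC (AT1G75330, 0.48 ± 0.12), an ornithine carbamoyltransferase of arginine synthesis. UBP25 had 246, 285 and 334 with water and 374, 409 and 513 after drought, without overlap.

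The lower ones included UPP (AT3G53900, -0.75 ± 0.18), a uracil phosphoribosyltransferase, the tubulin gene TUA6 (AT4G14960, -0.42 ± 0.10), SAMDC (AT3G02470, -0.41 ± 0.09) of polyamine synthesis, the antenna gene LHCB4.1 (AT5G01530, -0.39 ± 0.10) and AOR (AT1G23740, -0.38 ± 0.08), a chloroplast alkenal reductase. AOR had 8565, 8963 and 9635 with water and 6280, 6840 and 7525 after drought, a fall of 1.3-fold without overlap. The calls of SAMDC and LHCB4.1, both among the brightest probe sets, ended after quantile normalization, where SAMDC was at -0.08 (adjusted p = 0.46).

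**Figure D5:**
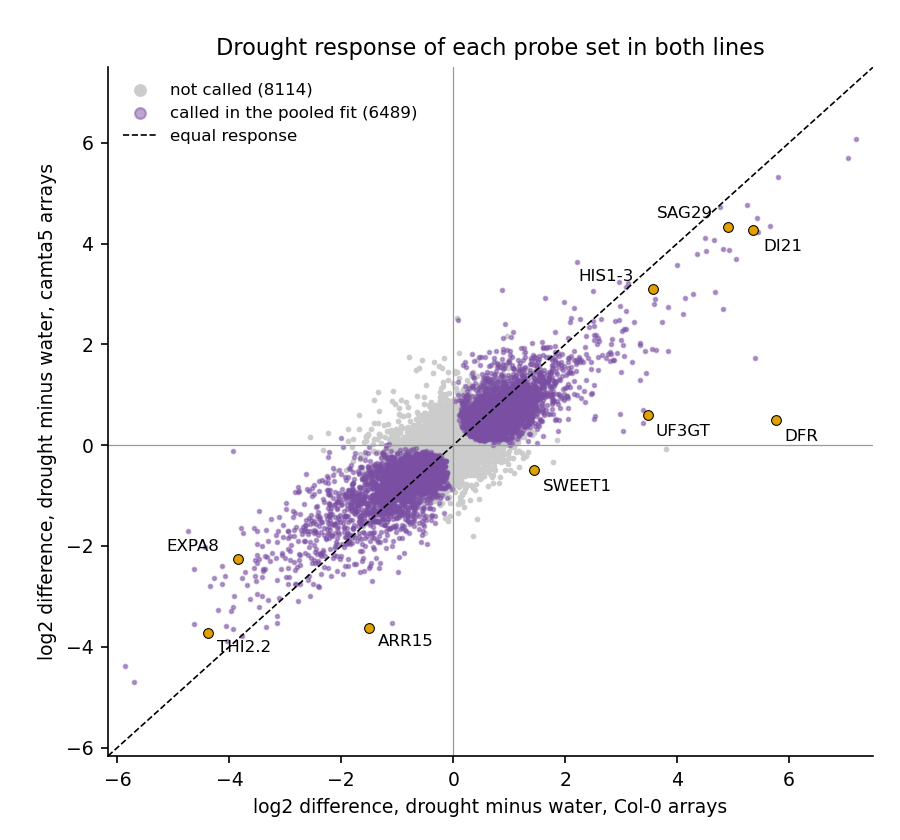
Log2 difference, drought minus water, of each of 14603 probe sets in the Col-0 arrays (x axis) and the camta5 arrays (y axis); purple marks the 6489 called in the pooled fit, grey the rest, and yellow the genes named. The dashed line marks equal response, and the responses of the lines had a Pearson correlation of 0.83. DFR (5.76 and 0.50) and UF3GT (3.47 and 0.60) lie far to its right.

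The difference between the drought responses of the lines was tested for every probe set. No probe set was called in limma (smallest adjusted p = 0.554), and 893 had an unadjusted p under 0.05, where 730 would by chance alone. Without Col-0 drought replicate 1, 30 were called. The test was coarse, since the 95% interval of the difference had a median half-width of 0.68. Of the 6489 pooled calls, the estimated responses lay within 2-fold of each other for 95.6%, and the whole 95% interval of the difference did so for 54.8%.

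The genes of smallest p in that test were DFR, UGT74B1, AKINBETA1, SWEET1 and FZL. DFR (AT5G42800), the dihydroflavonol reductase of anthocyanin synthesis, had 2.42, 5.95 and 5.20 in Col-0 with water and 352, 606 and 5963 after drought. In camta5 it had 34.6, 11.6 and 49.3 with water and 49.7, 45.4 and 47.5 after drought. Its pooled rise of 3.13 ± 0.86 (adjusted p = 0.00984) thus came from Col-0 values, and it was 2.3 without Col-0 drought replicate 3, the highest array. The offset also set its size, at 4.23 for an offset of 1 and 2.18 for 64. The difference of the responses was -5.27 ± 1.05 (adjusted p = 0.554 in limma). UF3GT (AT5G54060), an anthocyanin glycosyltransferase gene, had a pooled rise of 2.04 ± 0.59 (adjusted p = 0.0132) with 3.47 in Col-0 and 0.60 in camta5, and it was 1.45 without Col-0 drought replicate 3. It ran from 2.85 to 1.3 between offsets of 1 and 64. Of 6 flavonoid genes tested, 3 were higher and 1 lower, where 25.6% and 18.0% of all genes were. The call of UGT75C1, higher, ended in 6 of the 12 leave-one-out fits. CHIL, a chalcone isomerase-like gene, fell by 1.82 ± 0.45 (adjusted p = 0.00499), with -1.31 in Col-0 and -2.34 in camta5.

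UGT74B1 (AT1G24100), of glucosinolate synthesis, had 1936, 2052 and 1974 in Col-0 with water and 1074, 715 and 922 after drought. In camta5 it had 1731, 1459 and 2249 with water and 1793, 1728 and 1959 after drought. Its pooled call (-0.56 ± 0.20, adjusted p = 0.0359) ended without any 1 Col-0 array and without camta5 water replicate 3 (adjusted p = 0.0558 to 0.0849). AKINBETA1 (AT5G21170), a subunit of the energy-sensing SnRK1 kinase, had 834, 968 and 1131 in Col-0 with water and 514, 367 and 372 after drought. In camta5 it had 1520, 1921 and 1614 with water and 1720, 1333 and 1351 after drought. Its pooled call (-0.70 ± 0.18, adjusted p = 0.00713) needed the line as a covariate, since the adjusted p was 0.151 without it. SWEET1 (0.48 ± 0.36, adjusted p = 0.295) and FZL (AT1G03160), a dynamin-like protein of chloroplast membranes (-0.24 ± 0.21, adjusted p = 0.371), had responses of opposite sign in the lines and no pooled call. For each of these genes the adjusted p of the difference was at least 0.554.

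Few genes could be shown to stay level. For 134 of the 14603 probe sets, 0.918%, the 95% interval of the pooled difference lay within -0.25 to 0.25. The steady genes of highest mean level were the plastid gene ndhI, PGY1 (AT2G27530), a ribosomal protein gene, HTB4, AGL26 (AT5G26880) and UBC27 (AT5G50870), a ubiquitin-conjugating enzyme gene. PGY1 had signals of 4990, 5280 and 6390 with water and 4368, 5501 and 6178 after drought, a difference of -0.00016 ± 0.10. The level of ndhI depended on scaling, at 0.02 ± 0.09 as deposited and 0.25 (adjusted p = 0.0177) after quantile normalization. Of 5 genes often used as references 1 was called, where 43.5% of all genes were. It was AT2G32170, which rose by 0.55 ± 0.13 (adjusted p = 0.00363). The remaining 4 were not called, with differences from -0.18 to 0.26, but after quantile normalization GAPC2 was at 0.22 (adjusted p = 0.0386) and AT2G28390 at -0.29 (adjusted p = 0.0339).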

How the data were processed

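Leaf RNA of 12 plant samples was hybridised to Affymetrix ATH1 arrays, 1 array per sample, from 250 ng of total RNA per the labels. Per the submitters' processing notes, the authors used Affymetrix Expression Console with MAS5, and the deposited intensity values are linear. The values themselves show a common scale, with a mean near 496 once 2% of probe sets is trimmed at each end. Software versions and scan batches are not given here. The number of arrays limits the precision.

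Values were taken as log2(signal + 16). Control probe sets (64) were left out, and testing required a value over the 40th percentile of the array on at least 3 of the 12. limma 3.58.1 in R 4.3.3 (lmFit, eBayes with trend, two-sided, Benjamini-Hochberg over all 14603 probe sets) fitted drought with the line as covariate, the difference of the responses, and each line alone. Procedures were tested on simulated data. At most 2 values were identical between any pair of arrays. In the series table, 2 further array columns were not used.

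Names came from the platform annotation, with symbols updated by Entrez number (RefSeq, assembly TAIR10.1). Of 22810 probe sets 13513 named 1 gene, 503 several and 8794 none. Of the 1-gene probe sets 13436 were matched, 1551 of them to a symbol that is not the locus itself. CAMTA4, CAMTA5, CAMTA6 and UGT75C1 were named by locus. Of several probe sets of a gene, the one of highest mean was used. Named genes, 85 in all, were the 10 largest rises and falls and the 10 of smallest p each way without overlap, the 5 of smallest p each way called in neither line alone, the 2 largest called changes of each gene list with at least 3 tested members, the 5 of smallest p for the difference, the 5 brightest steady genes, the CAMTA genes, and called genes without a symbol. Further list members were named from their lists after their values were seen. Members and lists were chosen with earlier results of these data known, and genes that a shared symbol had put in a wrong list were removed after values were seen. Lists are described by counts and medians and were not tested. Alternatives were the offset, filter, scaling, moderation, array weights, blocking on the replicate number, other groupings, stricter thresholds and leaving out each array.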

Additional observations from a re-analysis of the deposited data

Results flagged for a closer look

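A sample was looked at again where its distance to the nearest of the other 5 arrays of its condition exceeded Dixon's 95% value of 0.625 of the whole range. Chance gives about 1 such flag in 20 groups, and 3 were found in 44 groups tested. SAG29 had 309 in Col-0 water replicate 2, against 124 to 151 in the other 5 water arrays. EXPA16 had 208 in camta5 water replicate 3, against 279 to 323. XTH19 had 14.2 in camta5 drought replicate 2, against 35.2 to 53.7. All of these genes had been chosen for conditions that did not overlap, so their separation says nothing further about the flagged arrays.

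SWEET1 stood out because its lines moved in opposite directions in every array. In Col-0 the drought arrays had 509, 2094 and 830, above the 295 to 386 of the water arrays. In camta5 they had 399, 327 and 287, below the 445 to 531 of the water arrays. The difference of the responses was -1.94 ± 0.51 (adjusted p = 0.702 in limma).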

How the results depend on the processing

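The count of 6489 pooled calls stayed between 5307 and 6707 under the alternatives that kept the threshold, and no probe set was called in the opposite direction under any of them. Stricter thresholds lowered it by construction, to 4120 (2280 higher, 1840 lower) at an adjusted p under 0.01 and 1601 (705 higher, 896 lower) at 2-fold. Leaving out 1 array gave 5638 to 6707 pooled calls (3162 to 3726 higher, 2476 to 2981 lower). For the difference of the responses it gave 0 to 30 calls (0 to 22 higher, 0 to 8 lower in camta5), the 30 without Col-0 drought replicate 1. For Col-0 alone it gave 1897 to 4611 (1104 to 2466 higher, 793 to 2145 lower), with 1897 to 2519 for any array but drought replicate 1. For camta5 alone it gave 764 to 3427 (355 to 1646 higher, 409 to 1781 lower), with 764 to 1420 for any array but drought replicate 1. Among list counts, members called lower were 5 of the expansin list above the 60th percentile, a filter that tests fewer probe sets. They were 5 of the nuclear photosynthesis list after quantile normalization and, at 2-fold, 1 of that list and 24 plastid genes. At 2-fold 3 senescence genes were higher, and of the CAMTA genes 0 were higher at 2-fold and 0 at an adjusted p under 0.01. Same-numbered arrays had deviation correlations of -0.19 to 0.27, and the numbers were not taken as pairs. Between the lines, drought replicates 1, 2 and 3 had 0.26, 0.27 and -0.18 with the same number. Drought replicate 1 of Col-0 against 2 of camta5 had -0.33, and 2 against 1 had -0.36. With the replicate number as a block 6298 probe sets were called and none for the difference. Of the 78 named genes called, 73 were called under each alternative that gave a value. Promoter motifs were not run. Dim signals limit the size of many folds.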
